A study of Mus musculus with 16 samples.

Results

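Transcripts of 33 genes that make ribosomes were compared in C2C12 myotubes, differentiated cells of a mouse muscle line, after 24 hr in mouse serum. The genes came from a list of 34 symbols for ribosome biogenesis and nucleolar factors, matched by exact symbol to a table of 24319 named rows. The symbol Utp4 had no row, and Cirh1a, an older name of the same gene in RefSeq, is shown beside the list without being counted. All 33 reached the mean of 0.5 FPKM (fragments per kilobase of transcript, scaled to the size of the library) required for testing, as did 11783 genes in all. The serum came from wild-type (WT) mice or from mice in which Bmal1, a core clock gene, had been deleted in the liver (LKO), and was drawn by day (ZT4) or by night (ZT16). The 4 groups, named by genotype and time (WT ZT4, for example), held 4 libraries each, labelled as biological replicates. The myotubes themselves were of 1 line and carried no deletion. Whether each replicate used the serum of a separate mouse is not given, so a p-value here reflects only how much these libraries vary, and that variation may be technical.

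Ribosomes are built in the nucleolus. RNA polymerase I copies the ribosomal DNA into a long precursor, small nucleolar ribonucleoproteins (snoRNPs) guide its chemical modification, and assembly factors cut and fold it into the small (40S) and large (60S) subunits. The transcription factor MYC is known to drive many of these genes through E-boxes, the sequence CACGTG, which CLOCK and BMAL1 also bind. In muscle, ribosome production is known to rise with growth and load.

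The 250 bases upstream of the start site are shown for 3 genes, chosen after their values were seen. Utp18, a small-subunit factor, and Nop2, a large-subunit methyltransferase, are the 2 members with an E-box in that window, and Ncl, whose expression followed the other members as closely as that of Utp18, has none. Sequences are from RefSeq on GRCm38.p6 and read 5′ to 3′ on the gene's strand. Capitals mark CACGTG and CCGGAAG, the core of sites for ETS factors, on either strand.
Utp18 (chr11:93885767-93886016, minus strand): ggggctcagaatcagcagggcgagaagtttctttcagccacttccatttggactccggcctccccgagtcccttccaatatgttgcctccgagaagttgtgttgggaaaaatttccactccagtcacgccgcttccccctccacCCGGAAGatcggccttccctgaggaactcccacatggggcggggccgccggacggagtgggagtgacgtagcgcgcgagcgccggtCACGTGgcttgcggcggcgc
Nop2 (chr6:125131633-125131882, plus strand): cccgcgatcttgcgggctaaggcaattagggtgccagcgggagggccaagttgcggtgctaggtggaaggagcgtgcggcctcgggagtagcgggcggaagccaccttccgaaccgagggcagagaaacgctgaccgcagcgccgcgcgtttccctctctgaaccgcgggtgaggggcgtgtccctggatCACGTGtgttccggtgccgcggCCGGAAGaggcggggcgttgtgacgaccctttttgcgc
Ncl (chr1:86359456-86359705, minus strand): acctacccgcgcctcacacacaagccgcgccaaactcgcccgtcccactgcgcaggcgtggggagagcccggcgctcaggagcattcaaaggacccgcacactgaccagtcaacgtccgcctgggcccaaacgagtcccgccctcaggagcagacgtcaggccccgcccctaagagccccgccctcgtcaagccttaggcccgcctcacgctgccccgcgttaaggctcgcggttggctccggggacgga

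Promoter entries were found for 27 members, and 7 motifs were searched on both strands, 6 of them added after the data had been seen. CACGTG was present in 2 of 27 members (7.41%) and in 6.86% of 27025 genes. CCGGAAG was present in 6 members (22.2% against 7.83% of all genes), GGGCGG, the GC box, in 21 (77.8% against 35.4%) and CCAAT in 9 (33.3% against 37.5%). A palindrome with a CGCG core, the NRF1 site and the YY1 site had no match in a member and were present in 0.448%, 0.877% and 0.359% of all genes. The median GC content of these windows was 57.6% in members and 52.4% in all genes. GGGCGG and CCGGAAG are themselves rich in G and C, and these shares are descriptions without a test. The 27025 genes were not limited to the 11783 tested here, and shares among expressed genes alone were not computed.

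The members were well expressed. The median of their mean levels was 47.7 FPKM against 12.7 FPKM for all tested genes, and 32 of 33 lay above that second median. Levels differed widely between members. Npm1, a nucleolar chaperone, had the highest mean, 739 FPKM (548 to 907 over the 16 libraries). Next came Ncl, nucleolin, a scaffold of the nucleolus, with 197 FPKM and Nop56, a core protein of C/D box snoRNPs, with 181 FPKM. The lowest means were those of the large-subunit factor Noc3l, 12.7 FPKM, and of Utp20, a very large small-subunit factor, 13.9 FPKM. The median coefficient of variation over the 16 libraries was 10.5% for members and 10.3% for all tested genes.

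Proteins that work together in 1 particle did not have equal FPKM. Ratios of FPKM between genes also depend on the length each gene was divided by, which is not given. They need not be ratios of transcript numbers. The H/ACA snoRNP, which guides pseudouridylation, is built from Dkc1, the pseudouridine synthase, with Nhp2, Nop10 and Gar1. Nhp2 was above Dkc1 in 16 of 16 libraries, with a median FPKM ratio of 2.92 (2.59 to 3.55), and Nop10 was above Dkc1 in 16 with a ratio of 2.71. Dkc1 and Gar1 were closer, with ratios from 0.944 to 1.54 and Dkc1 higher in 13 libraries. In the C/D box snoRNP, which guides methylation, Nop56 exceeded Nop58 in 16 libraries by 1.41-fold (1.29 to 1.58), while Nop58 and the methyltransferase Fbl had a median ratio of 1.01. In the complex of Pes1, Bop1 and Wdr12, which acts in large-subunit maturation, Bop1 was above Pes1 by 1.77-fold and Pes1 above Wdr12 by 2.05-fold, in 16 libraries each. Polr1a and Polr1b, the 2 largest subunits of RNA polymerase I, had a median ratio of 1.03.

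**Figure D1:**
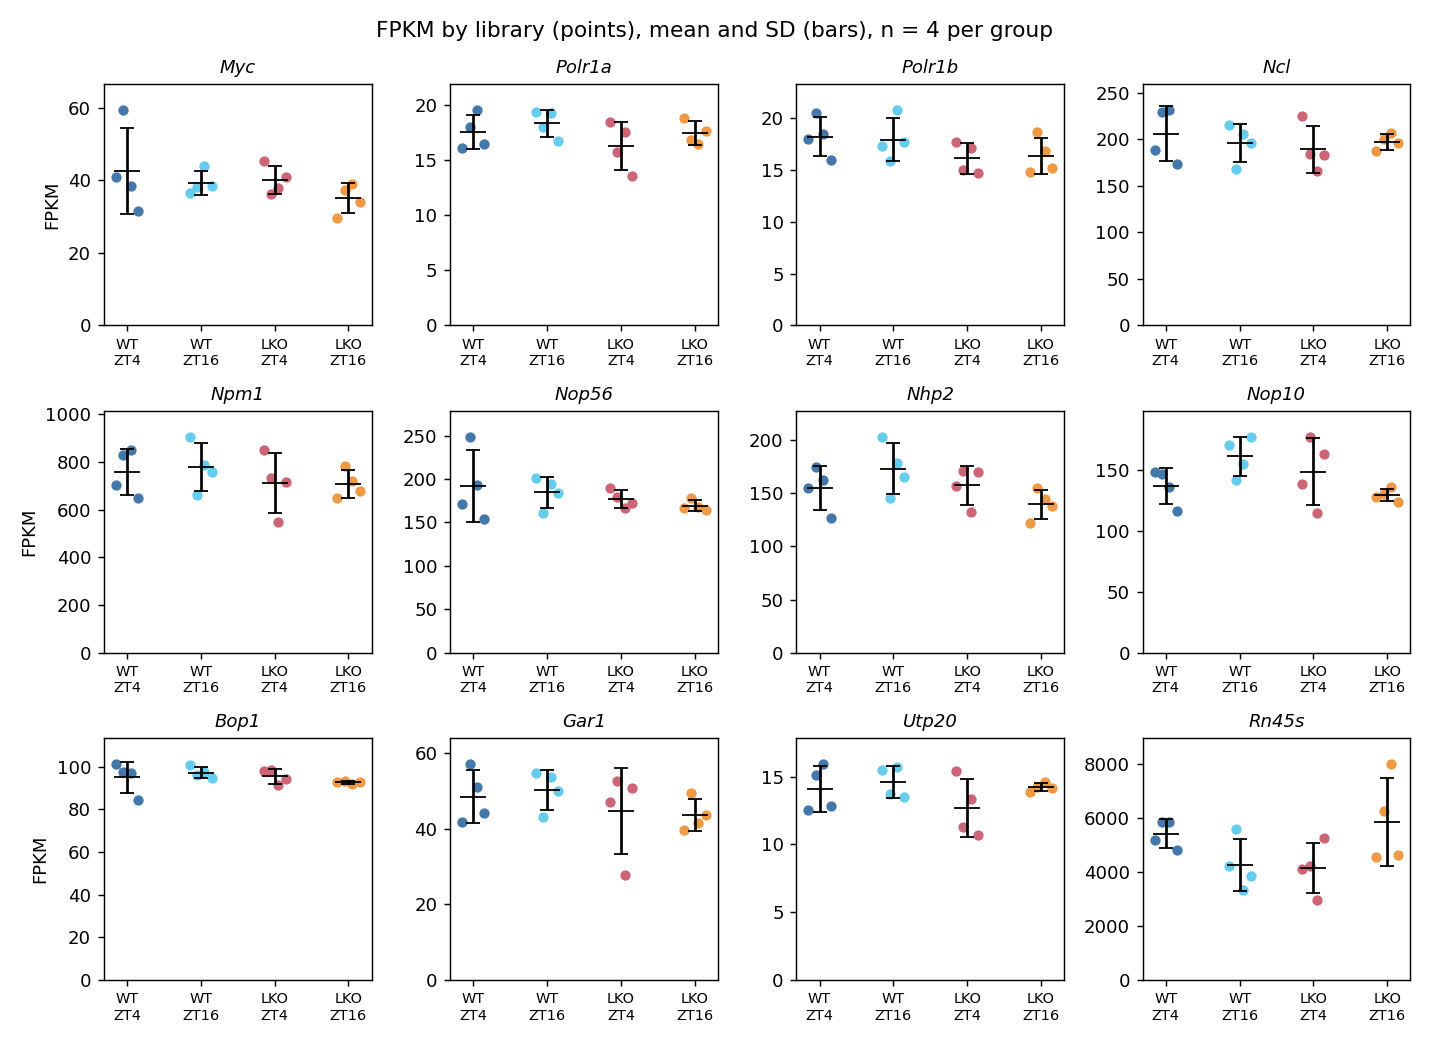
FPKM by serum group for 11 members and Rn45s, with each library as a point and the mean and SD of 4 libraries as bars, on axes that start at 0. LKO ZT16 lies below WT ZT16 without overlap in Nop10 and Bop1, and the groups overlap in the 4 pairwise comparisons of the other genes shown.

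None of the 33 members passed in any of the 5 comparisons (limma on log2(FPKM + 1), Benjamini-Hochberg adjusted p under 0.05 over all 11783 genes). Few genes of the table passed at all. In the order WT night against day, LKO night against day, LKO against WT at ZT4, LKO against WT at ZT16 and the interaction, the share of all tested genes called was 0.0%, 0.017%, 0.00849%, 0.0509% and 0.0934%. At an unadjusted p under 0.05, the members numbered 0, 0, 0, 4 and 1, against 3.97%, 11.9%, 10.3%, 12.7% and 10.3% of all tested genes. The 95% interval of each member, unadjusted and for the values as deposited, lay within 1 log2 unit in all 5 comparisons. It lay within 0.5 for 33, 33, 33, 29 and 28 members. These intervals reflect only how much these libraries vary, so they do not by themselves bound the effect of serum genotype or time. The comparisons share libraries, since each group enters 2 pairwise ones and the interaction, and they are not independent.

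Under WT serum the question was whether night serum changed the members relative to day serum. The fitted difference, WT ZT16 minus WT ZT4, was positive in 22 members and negative in 11 (50.3% and 49.7% of all tested genes), with a median of 0.04 log2 against 0.00 for all genes. Nop10, the smallest H/ACA protein, had 149, 147, 136 and 116 FPKM in WT ZT4 and 170.1, 142, 155 and 177 FPKM in WT ZT16. WT ZT4 replicate 4 was lowest, and the 2 groups overlapped because WT ZT16 replicate 2 lay below WT ZT4 replicates 1 and 2. The difference was 0.23 ± 0.11 log2 (estimate ± SE, n = 4 per group, limma adjusted p = 0.999). Nhp2 (0.16 ± 0.11) and the small-subunit factor Rrp12 (0.10 ± 0.09) followed, and the most negative were Nop58 (-0.13 ± 0.10), Nop14, another small-subunit factor (-0.11 ± 0.10), and the processome protein Wdr43 (-0.11 ± 0.11). These had a limma adjusted p of 0.999. Nop10 and Nhp2 are short transcripts, and the level of short transcripts relative to long ones, defined with the length values further on, was lower in each WT ZT4 library (-0.14 to -0.05) than in each WT ZT16 library (0.00 to 0.20). With a trend on basic transcript length removed the values were 0.21 for Nop10 and 0.13 for Nhp2. Groups did not overlap in 0 members, against 2.55% of tested genes with WT ZT16 higher and 1.80% with it lower. Without WT ZT4 replicate 4 the member median was -0.03, and without WT ZT16 replicate 1 it was near 0.

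Under LKO serum the members again lay near 0 between night and day. The difference, LKO ZT16 minus LKO ZT4, was positive in 15 members and negative in 18 (51.7% and 48.3% of all genes), with a median of -0.03 against 0.01. Utp20 had 15.4, 11.3, 13.4 and 10.7 FPKM in LKO ZT4 and 13.9, 14.3, 14.6 and 14.2 FPKM in LKO ZT16. LKO ZT4 was spread from the lowest to the highest of the 8 values, so the groups overlapped, and the difference was 0.17 ± 0.10 (limma adjusted p = 0.526). Polr1a, which forms the polymerase's active site with Polr1b, was at 0.10 ± 0.09 and Nolc1, a chaperone of H/ACA particles, at 0.06 ± 0.09. The most negative by moderated t were Nop16, a large-subunit factor (-0.15 ± 0.07, limma adjusted p = 0.420), Nop10 (-0.18 ± 0.11) and Nhp2 (-0.17 ± 0.11). Utp20 and Polr1a have the longest coding sequences of the members and Nop10, Nhp2 and Nop16 the shortest. With a trend on the median length of basic transcripts removed from each library, the values were 0.03 for Utp20, -0.06 for Nop16, -0.08 for Nop10, -0.07 for Nhp2 and -0.04 for Polr1a. By the median of all transcripts they were 0.22 for Utp20, -0.18 for Nop10 and 0.11 for Polr1a. Groups did not overlap in 0 members, against 2.48% of tested genes higher and 2.52% lower. Leaving out LKO ZT4 replicate 1 gave a median of 0.03, and leaving out LKO ZT16 replicate 1 gave 0.00.

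At ZT4, LKO serum was compared with WT serum to ask about the liver clock by day. The difference was negative in 28 of 33 members (52.7% of all tested genes), with a median of -0.07 against -0.01. All 9 small-subunit factors and all 4 of Polr1a, Polr1b, the polymerase I regulator Mybbp1a and Myc were on the negative side, and 0 passed. Polr1b had 17.9, 20.5, 18.5 and 15.9 FPKM in WT ZT4 and 17.7, 15.01, 17.2 and 14.7 FPKM in LKO ZT4. The groups overlapped, and LKO ZT4 replicates 2 and 4 were below all 4 WT libraries. The difference of -0.16 ± 0.09 had a limma adjusted p of 0.579. Nop58 was at -0.16 ± 0.10 and Utp20 at -0.15 ± 0.10, and on the positive side stood Nop10 (0.11 ± 0.11), Nop16 (0.05 ± 0.07) and Ebna1bp2, a large-subunit factor (0.03 ± 0.07). Groups did not overlap in 0 members, against 1.65% of genes with LKO lower and 2.28% with LKO higher. The negative median depended on single libraries. Leaving out WT ZT4 replicate 2 brought it to -0.01, with 17 members negative. It was -0.03 when LKO ZT4 replicate 3 was dropped, -0.04 when WT ZT4 replicate 3 was and -0.14 when WT ZT4 replicate 4 was. After scaling to equal summed FPKM it was -0.15, with 32 members negative, and the median of all genes was -0.07. Markers of cycling or undifferentiated myoblasts leaned the same way. Of 21 such genes 18 were negative, with a median of -0.07, and their summed level was 1758 to 1926 FPKM in WT ZT4 and 1657 to 1817 FPKM in LKO ZT4. Of 25 myotube marker genes 17 were positive and 8 negative at ZT4, with a median of 0.05. The part of either cell state in the ZT4 differences was not tested.

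**Figure D2:**
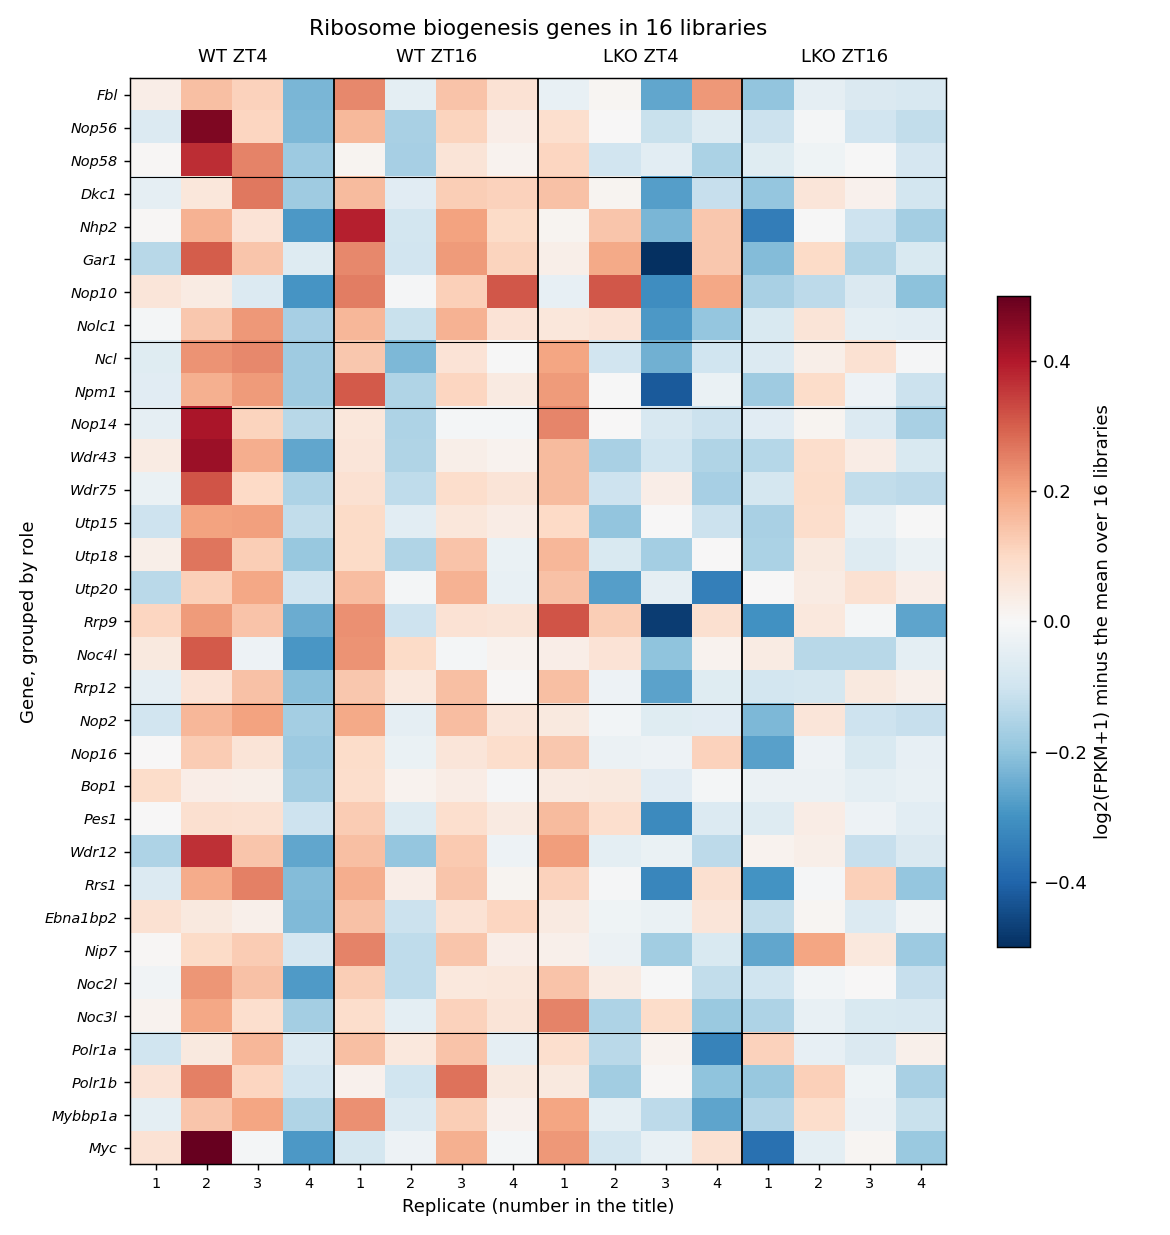
log2(FPKM + 1) of each member minus its mean over the 16 libraries, with members in rows grouped by role and libraries in columns grouped by serum. Colours saturate at ±0.5. WT ZT4 replicate 2 is above its group mean in 33 of 33 members and WT ZT4 replicate 4 below it in 33 of 33.

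At ZT16, 32 of 33 members had a lower fitted level under LKO serum than under WT serum (48.6% of all tested genes were lower and 51.4% higher), but each difference was small. The median was -0.12 log2 against 0.01 for all genes, with Nop10 at one end (-0.31) and Ncl at the other (0.01). The members rose and fell together from library to library, so the 32 are not separate observations. The mean log2 level of the members in a library, relative to all libraries, overlapped between the groups. It ran from -0.08 to 0.15 in WT ZT16 and from -0.14 to 0.02 in LKO ZT16. Nop10 had 170.1, 142, 155 and 177 FPKM in WT ZT16 and 127, 130.2, 135 and 123 FPKM in LKO ZT16. All 4 LKO libraries lay below all 4 WT libraries. The difference of -0.31 ± 0.11 (95% interval -0.55 to -0.07) had an unadjusted p of 0.0134 and a limma adjusted p of 0.287, so it did not pass. Nhp2 had 203, 146, 178 and 166 FPKM in WT ZT16 and 122, 155, 144 and 138 FPKM in LKO ZT16. LKO ZT16 replicate 2 exceeded WT ZT16 replicate 2, and the difference was -0.30 ± 0.11 (limma adjusted p = 0.309).

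At an unadjusted limma p under 0.05, the 4 of 33 members at ZT16 were near the share of all tested genes, 12.7%. Those other than Nop10 and Nhp2 were both large-subunit factors. Nop2 had 76.5, 64.9, 74.6 and 69.9 FPKM in WT ZT16 and 57.1, 69.9, 62.2 and 61.7 FPKM in LKO ZT16. LKO ZT16 replicate 2 reached the WT range, and the difference was -0.19 ± 0.08 (limma adjusted p = 0.367). Nop16 was at -0.15 ± 0.07 (limma adjusted p = 0.382). The groups were apart in Nop10 and Bop1, both lower under LKO (5.92% of tested genes), and in 0 members with LKO higher (5.95%). For 33 members, 2 that are apart is near the first of these shares. Bop1 had 101.0, 96.2, 97.5 and 94.8 FPKM in WT ZT16 and 93.1, 93.2, 91.9 and 92.7 FPKM in LKO ZT16, a small separation (-0.07 ± 0.05, limma adjusted p = 0.614). Nearest 0 were Ncl (0.01 ± 0.10), Wdr43 (-0.01 ± 0.11) and Nop58 (-0.02 ± 0.10). The H/ACA group had the most negative median, -0.20 over 5 genes, and the 60S group, the C/D group and the polymerase group had -0.11, -0.12 and -0.13. The H/ACA group holds Nop10 and Nhp2, which have the shortest coding sequences of the members. Medians by role with a length trend removed were not computed, so the part of length in this order was not tested. The 9 small-subunit factors had a median of -0.07 and were all negative, and the 2 scaffold and chaperone genes, Ncl and Npm1, had -0.06 with 1 on each side of 0. Leaving out any 1 library kept the median between -0.16 (without WT ZT16 replicate 2) and -0.07 (without WT ZT16 replicate 1).

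**Figure D3:**
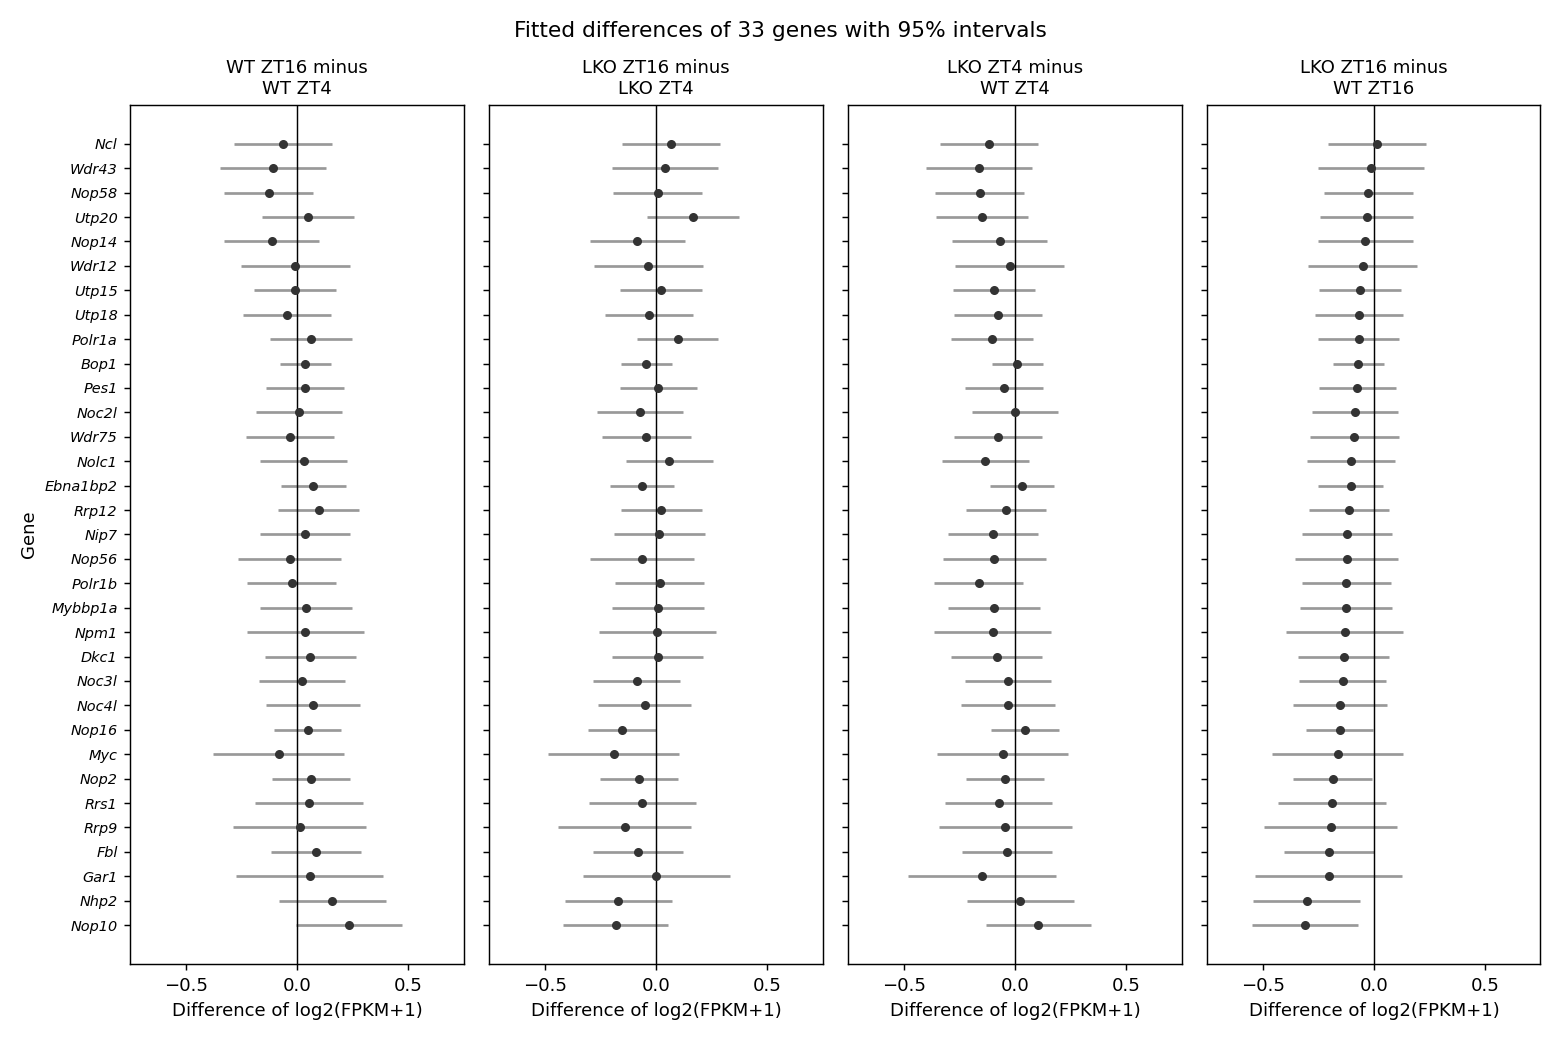
Fitted differences of log2(FPKM + 1) for the 33 members (points) with 95% intervals (lines) in the 4 pairwise comparisons, ordered by the difference at ZT16. Of the 33 points, 32 lie left of 0 for LKO ZT16 minus WT ZT16, and 0 members passed.

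Scaling changes where 0 lies at ZT16. When every library was scaled to the same summed FPKM, the median of all tested genes moved to 0.10 log2 and that of the members to -0.01, with 18 members below 0. Relative to all genes, the members' median was -0.13 with the values as deposited and -0.11 after this scaling, and 32 of 33 lay below the median of all genes in both. A lower level of the members at ZT16 is therefore a statement relative to the other transcripts, and in bulk cultures fewer expressing cells and less RNA per cell cannot be told apart.

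The effect of time under LKO serum minus that under WT serum was also tested directly. This interaction was negative in 23 members and positive in 10 (47.7% and 52.3% of all genes), with a median of -0.03 against 0.01. Nop10, which was at 0.23 under WT serum and at -0.18 under LKO serum, had an interaction of -0.42 ± 0.16 (unadjusted p = 0.0182, limma adjusted p = 0.375). Nhp2 was at -0.33 ± 0.16 and Nop16 at -0.20 ± 0.10, and all 10 large-subunit factors were on the negative side. Wdr43 (0.15 ± 0.16), Nop58 (0.13 ± 0.13) and Ncl (0.13 ± 0.15) had the most positive values. The median turned to 0.02 when WT ZT4 replicate 4 was dropped, to 0.01 when LKO ZT4 replicate 1 was and to 0.00 when WT ZT16 replicate 1 was.

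Myc, the regulator, had 40.9, 59.6, 38.6 and 31.7 FPKM under WT ZT4 serum and 36.5, 38.1, 44.1 and 38.6 FPKM under WT ZT16 serum. Under LKO ZT4 serum it had 45.3, 36.4, 37.8 and 41.0 FPKM, and under LKO ZT16 serum 29.7, 37.5, 39.1 and 34.02 FPKM. All 4 groups overlapped, and WT ZT4 held both the highest value and the second lowest. It had the largest coefficient of variation among the members, 17.1%. LKO minus WT was -0.05 ± 0.14 at ZT4 and -0.16 ± 0.14 at ZT16 (limma adjusted p = 0.930 and 0.649), and night minus day was -0.08 ± 0.14 under WT and -0.19 ± 0.14 under LKO serum (limma adjusted p = 0.999 and 0.610). Polr1a had 17.6 ± 1.58, 18.4 ± 1.22, 16.4 ± 2.17 and 17.5 ± 1.08 FPKM (mean ± SD, n = 4) by day and night under WT serum and then by day and night under LKO serum. Polr1b had 18.2 ± 1.89, 17.9 ± 2.09, 16.1 ± 1.5 and 16.4 ± 1.74 FPKM in the same order. For both subunits the 4 groups overlapped, and the interaction was 0.04 ± 0.12 and 0.04 ± 0.13.

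The row Rn45s, named for the precursor of ribosomal RNA that these factors process, ran in another order. Its FPKM was 5169, 5865, 5852 and 4797 in WT ZT4 and 4222, 5585, 3334 and 3832 in WT ZT16. Under LKO serum it was 4116, 4212, 2976 and 5272 by day and 4563, 6261, 8006 and 4625 by night. Night libraries were mostly below day libraries under WT serum and mostly above them under LKO serum, with overlap in both. The difference was -0.37 ± 0.19 under WT and 0.49 ± 0.19 under LKO serum, and the interaction 0.86 ± 0.27 (unadjusted p = 0.00594, limma adjusted p = 0.250), which did not pass. Without any 1 library the interaction ran from 0.70 to 1.00. The libraries were selected for poly-A RNA, which the precursor largely lacks, and the ribosomal DNA is present in many copies, so this row also depends on how well selection worked and on how repeated sequences were counted. Neither was tested.

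**Figure D4:**
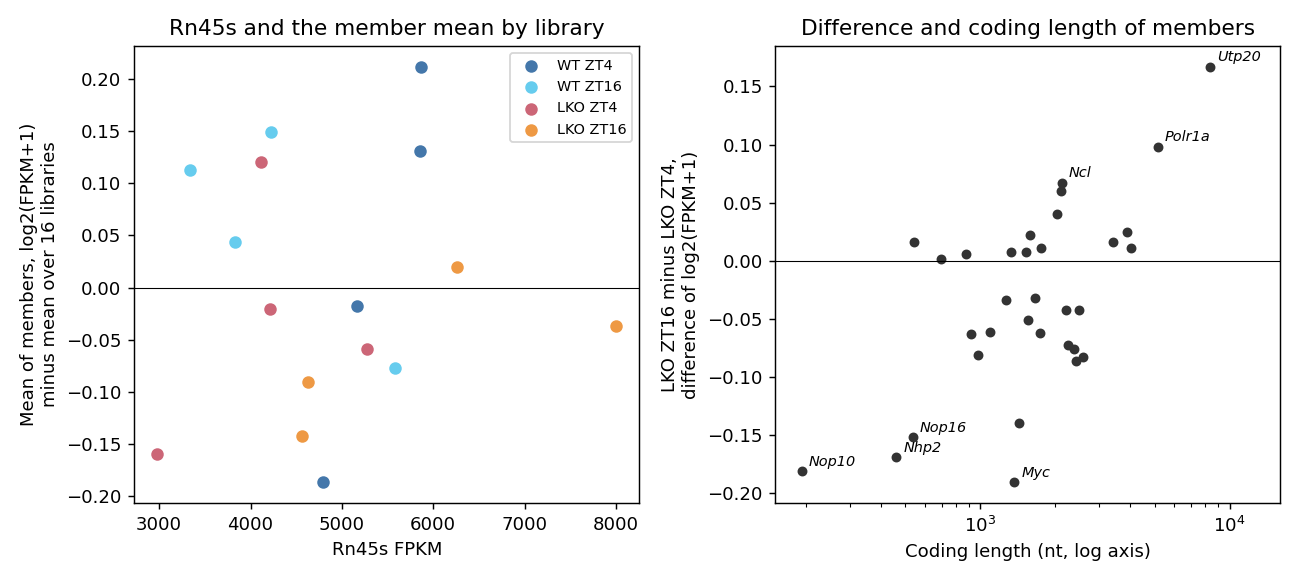
Left, the mean log2 level of the members in each library, relative to the mean over 16 libraries, against Rn45s FPKM, coloured by serum group. Right, the difference LKO ZT16 minus LKO ZT4 of each member against its coding length on a log axis, with Nop10, the shortest, at -0.18 and Utp20, the longest, at 0.17.

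Transcript length moved with the differences under most definitions of length, 4 of which were looked at. Among the members, the Spearman correlation of the difference with the median length of basic transcripts was 0.70 for LKO night against day, 0.73 for LKO against WT at ZT16 and 0.70 for the interaction (33 genes that share the same libraries). It had the other sign for WT night against day (-0.30) and for LKO against WT at ZT4 (-0.45). With the median of all annotated transcripts, a definition that counts many fragments, it was 0.01, -0.04 and -0.14, and 0.13 and 0.21 for the last pair. With coding length it was 0.45, 0.49 and 0.50, and over 11041 tested genes with a coding length 0.40, 0.27 and 0.35. For WT night against day and LKO against WT at ZT4, coding length gave -0.25 and -0.33 in members and -0.11 and -0.21 in those genes. The 11 members with the shortest coding sequences (192 to 1332 nt) had a median of -0.15 at ZT16 and the 11 longest (2196 to 8367 nt) -0.09. The libraries differed in the same respect. Short transcripts (under 500 nt) were set against long ones (over 2000 nt) by the difference of their mean centred log2 levels, which ran from 0.00 to 0.20 in WT ZT16 and from -0.14 to 0.02 in LKO ZT16. In WT ZT4 it was -0.11, -0.05, -0.05 and -0.14, and in LKO ZT4 -0.11, 0.17, -0.19 and 0.32. With a smooth length trend removed from each library, the ZT16 difference was -0.23 for Nop10 (limma adjusted p = 0.374) and -0.22 for Nhp2, the Nop10 interaction was -0.29 (limma adjusted p = 0.667), and the member median at ZT16 was -0.13.

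Within groups the members rose and fell together from library to library. Counts of members on 1 side of 0 in a comparison are therefore not counts of separate observations. After the group means were taken out, the median Pearson correlation over the 528 pairs of members was 0.65, and 519 pairs were above 0 (16 libraries, a description without a test). It was 0.55 without the 2 libraries farthest from their group means, WT ZT4 replicates 2 and 4. Utp18 and Ncl followed the mean of the other members most closely (r = 0.95 each), ahead of Wdr43 (0.91) and Npm1 (0.90). Polr1a (0.32) and Nop10 (0.46) followed it least. The median correlation of all tested genes with the member mean was 0.02, with quartiles of -0.29 and 0.33, and Rn45s had 0.24. Genes of other lists moved with the members as well. The median r with the member mean was 0.73 over 47 other 60S factors, 0.70 over 42 other small-subunit factors and 0.68 over 29 MYC-responsive growth genes. It was 0.52 for snoRNP assembly factors, 0.45 for exosome genes, 0.33 for other polymerase I genes, 0.18 for p53 targets and -0.17 for the MYC network. For markers it was 0.13 over cycling myoblast genes and -0.27 over myotube genes. Points that share a library share its depth and its length trend, whose part in this was not tested.

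In WT ZT4 this common movement was wider than the differences between groups. In each of the other groups its SD also exceeded the distance of the group mean from the mean over all libraries. The mean log2 level of the members, relative to the mean over all libraries, under WT serum was 0.03 ± 0.18 at ZT4 and 0.06 ± 0.10 at ZT16, and under LKO serum -0.03 ± 0.12 and -0.06 ± 0.07 (mean ± SD, n = 4). WT ZT4 replicate 2, at 0.21, was the highest of the 16 and replicate 4 of the same group, at -0.19, the lowest. Replicate 4 held the lowest value of its group in 30 of 33 members.

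Lists of other genes of the pathway gave 0 calls in the 5 comparisons (limma, adjusted p under 0.05). At ZT16 the LKO minus WT median was -0.08 over 42 other small-subunit factors (36 negative), -0.07 over 47 other 60S factors (39 negative), -0.09 over 20 other polymerase I subunits and factors (16 negative), -0.08 over 17 exosome genes (15 negative) and -0.12 over 12 snoRNP assembly factors (10 negative). It was -0.08 over 29 MYC-responsive growth genes (25 negative), -0.02 over 12 genes of the MYC network (7 negative) and 0.11 over 21 targets of p53 and nucleolar stress (9 negative). Unadjusted p under 0.05 was seen at ZT16 in 8, 7, 7, 2, 3, 4, 0 and 5 genes of these lists in that order. Of all tested genes 48.6% were negative at ZT16 and 12.7% had an unadjusted p under 0.05, and the counts for the 60S, exosome and MYC-responsive lists lie near that second share.

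The gene with the smallest p of each list did not pass either. Polr2l, a small subunit shared by the RNA polymerases, had 33.8 ± 2.31 FPKM in WT ZT16 and 23.4 ± 3.29 FPKM in LKO ZT16 (-0.52 ± 0.11, limma adjusted p = 0.161). Surf6, a nucleolar 60S factor, was at -0.25 ± 0.06 (0.223), Fcf1, a small-subunit factor, at -0.24 ± 0.07 (0.223) and the exosome subunit Exosc5 at -0.35 ± 0.10 (0.230), with the limma adjusted p in parentheses. The p53 target Ccng1 was higher in fitted level under LKO serum at ZT16 (0.29 ± 0.10, limma adjusted p = 0.263). Znhit3, a snoRNP assembly factor, was at 0.26 ± 0.08 for WT night against day (limma adjusted p = 0.907). For the interaction, the mitochondrial chaperonin Hspe1 was at -0.43 ± 0.14 (limma adjusted p = 0.274) and Mga, a partner of MAX, at 0.31 ± 0.14 (0.482).

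The labelled cell type carried its markers. Summed FPKM of 25 myotube genes ran from 10091 to 15293 over the libraries, and Acta1, skeletal actin, had group means from 2069 to 2255 FPKM. Summed FPKM of 21 genes of cycling or undifferentiated myoblasts ran from 1657 to 2035. It was 1780 to 2035 in WT ZT16 and 1694 to 1813 in LKO ZT16. Of these 21 genes 16 had a negative difference at ZT16 and 5 a positive one, with a median of -0.04 (-0.73 to 0.11). Mki67, on the positive side, had group means of 27.4 FPKM in WT ZT16 and 29.0 FPKM in LKO ZT16. Of the 25 myotube genes 14 had a negative difference at ZT16 and 11 a positive one, with a median of -0.04. The part of either cell state in the ZT16 differences was not tested. Of 9 hepatocyte genes, 4 were listed at 0 throughout (Ttr, Fgb, Cyp3a11 and Hnf4a), and the summed level was at most 0.174 FPKM. Of 11 blood cell genes, 5 were listed at 0 throughout, and the sum was 0.678 to 3.88 FPKM in WT ZT4, 3.0 to 5.83 FPKM in WT ZT16, 1.61 to 2.54 FPKM in LKO ZT4 and 1.29 to 2.93 FPKM in LKO ZT16. WT ZT16 was thus above LKO ZT16 without overlap. Of the 2 blood genes tested, S100a8 had a ZT16 difference of -1.11 with the groups apart and an unadjusted p under 0.05 (limma adjusted p = 0.223), and the part of such RNA in the ZT16 differences was not tested. Depth relative to the deepest library was roughly estimated at 65.4 to 100%.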

How the data were processed

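The authors deposited 1 table of FPKM values, not counts, for 16 libraries. Per the labels' protocols, messenger RNA was selected on poly-T beads and cDNA was primed with random hexamers. Per the submitters' processing notes, FastQC 0.11.8 and STAR were used, and the builds mm10 and GRCm39 are named without a role. How FPKM were computed is not given in the sources used. Of 24346 rows, 27 had symbols turned into dates and were left out. FPKM without counts leaves each gene's depth unknown. Relative depth was estimated from the most common log2 ratio of very low genes between each library and WT ZT4 replicate 2 (bandwidth 0.02). In LKO ZT4 replicate 4, the library with the lowest estimate, 65.4%, only 8.09% of the ratios lay near that value. The estimate is therefore rough.

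Genes with a mean of at least 0.5 FPKM (11783) were tested on log2(FPKM + 1), a scale that understates changes of low genes. The fit used limma 3.58.1 (R 4.3.3) with lmFit and a trended eBayes over all 16 libraries, leaving 12 residual degrees of freedom, and was tested on simulated data. Those data had changes of 1 log2 unit and noise that was independent between genes. The differences of the members were smaller and their variation was shared, so that run does not show how such differences would be detected. Adjustment was over all tested genes, with a threshold of 0.05. In each comparison the 3 members with the most positive and the 3 with the most negative moderated t were named, with Myc, Polr1a, Polr1b and Rn45s always, and the gene with the smallest p of each of 8 companion lists. Fbl, Gar1, Bop1, Nop2, Dkc1, Npm1, Nop56 and others were also described for their levels or for a count they belong to.

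Lengths came from GENCODE M21. The length definition was changed after results under earlier ones had been seen: the median of all transcripts gave 729 nt for Utp20 and the longest principal transcript 10012 nt for Wdr12. The median of basic transcripts was kept for trend removal, and coding length for ordering members. Promoters and synonyms came from RefSeq tables of GRCm38.p6. Only CACGTG had been planned among the motifs.

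The numbers in the column names differ from those in the titles in 7 libraries, and samples were assigned through the library names. Whether replicate numbers pair the samples was not settled. Same-numbered libraries correlated over 0.1 in 3 of 24 pairs by titles (-0.22 to 0.25) and in 6 of 24 by column names (-0.09 to 0.33). Differently numbered libraries were not set beside them, so these values cannot decide it. Alternatives were a pseudocount of 0.1, no filter, a mean of at least 2 FPKM, median-ratio scaling, the same summed FPKM, library weights, only the groups compared, replicate blocks, length trends removed, Cirh1a counted and leaving out each library. The members and lists were chosen with earlier results of these data known. Python 3.11.15 with matplotlib 3.10.9 drew the figures.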

Additional observations from a re-analysis of the deposited data

Results flagged for a closer look

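In 140 groups of 4 libraries (33 members, Rn45s and Cirh1a in 4 groups each), 2 held a library far from the other 3 by Dixon's criterion, where chance flags about 1 in 20. Wdr75, a small-subunit processome factor, had 40 FPKM in WT ZT16 replicate 2, the lowest of its group. Cirh1a had 47.5 FPKM in the same library, also the lowest of its group. That library lay below its group mean in 32 of 33 members.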

How the results depend on the processing

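No member passed in any comparison in any of the 29 settings (28 for the interaction). The number of all tested genes that passed varied with the setting. At ZT16 it was 6 of 11783 in the main fit, 254 with library weights and 131 with only the 2 groups compared. For the interaction it was 11 in the main fit, 127 with library weights and 109 without LKO ZT4 replicate 1. For LKO serum over time it was 2 in the main fit and 62 without LKO ZT4 replicate 1. The smallest limma adjusted p over the settings was 0.0608 for Nop10 at ZT16 (only the 2 groups compared), 0.0839 for Nop10 in the interaction and 0.165 for Nop10 under LKO serum (both without LKO ZT4 replicate 3), 0.303 for Nop58 at ZT4 and 0.619 for Nop14 under WT serum (both with the same summed FPKM). The replicate block, by titles or by column names, left the member medians at 0.037, -0.034, -0.073, -0.120 and -0.032. It could not move them, because each group holds 1 library of each replicate number, so the same medians are no support. A block can change only the p-values, and no member was called with it. Over all tested genes, the block by titles gave 0 calls at ZT16, 0 for LKO serum over time and 6 for the interaction. With the same summed FPKM the medians turned to -0.047 for WT serum over time, 0.064 for LKO serum over time and 0.153 for the interaction, where the median of all genes moved by about as much, and it was -0.012 at ZT16 and -0.148 at ZT4. The co-variation stayed between 0.534 and 0.696 without any 1 library.

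Leaving out 1 library, the median over time ran from -0.032 to 0.077 under WT serum and from -0.078 to 0.029 under LKO serum. Between genotypes it ran from -0.143 to -0.007 by day and from -0.164 to -0.075 by night, and for the interaction from -0.097 to 0.018. Named genes near 0 also turned sign, the cause of which was not tested. The ranges were -0.006 to 0.112 for Nolc1 and -0.045 to 0.060 for Polr1b in LKO over time; -0.059 to 0.060 for Ncl, -0.074 to 0.003 for Nop58 and -0.059 to 0.028 for Wdr43 at ZT16; -0.036 to 0.062 for Ebna1bp2, -0.182 to 0.115 for Myc and -0.016 to 0.087 for Nop16 at ZT4. They were -0.209 to 0.088 for Myc, -0.094 to 0.033 for Polr1b and -0.227 to 0.003 for Wdr43 in WT over time, and -0.279 to 0.018 for Myc, -0.046 to 0.094 for Polr1a and -0.022 to 0.11 for Polr1b in the interaction. Among values that kept their sign, those that moved by over 1.5 times included 0.017 to 0.157 for Polr1a and 0.096 to 0.259 for Utp20, -0.297 to -0.09 for Nop10 and -0.25 to -0.106 for Nhp2 in LKO over time, 0.014 to 0.221 for Nop10, -0.256 to -0.072 for Nop58 and -0.241 to -0.077 for Utp20 at ZT4, and -0.187 to -0.005 for Nop14 and 0.066 to 0.238 for Nhp2 in WT over time. With the same summed FPKM, Nop58 was 0.086, Polr1a 0.036 and Wdr43 0.097 at ZT16, Ebna1bp2 -0.044 and Nop16 -0.029 at ZT4, Polr1a -0.018 in WT over time and Myc 0.073 in the interaction. With library weights Nolc1 was -0.013 in LKO over time.

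Of 3 transcript length definitions tried, the median of all transcripts gave no clear relation of length with the member differences (Spearman 0.01, -0.04 and -0.14 for LKO over time, ZT16 and the interaction) and the longest principal transcript gave 0.71, 0.66 and 0.62. With the length trend removed Polr1a was -0.040 and Polr1b -0.007 in LKO over time, Ncl -0.068 at ZT16, and Ncl -0.007 and Polr1a -0.11 in the interaction. By the longest principal transcript these were -0.035, -0.014, -0.068, -0.006 and -0.11, with Nop58 0.017 at ZT16 and Myc 0.014 and Polr1b -0.004 in the interaction. By the median of all transcripts Nop58 was 0.022 and Wdr43 0.034 at ZT16, and the LKO median over time 0.004. FPKM without counts gives no counting error for any gene.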
